A study of Mus musculus with 30 samples.

Results

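The genes described here encode the proteins of the cytosolic ribosome. They were taken as the protein-coding genes of GENCODE M21 with an Rpl or Rps symbol, together with Rplp0, Rplp1, Rplp2 and Rpsa, without pseudogene names and without the Rps6k kinases, at a mean of at least 10 TPM (transcripts per 1000000 transcripts) over all libraries. Of 83 such genes in a table of 29861, 79 met the level, 31 of the small and 48 of the large ribosomal subunit, and all 79 were among the 13644 genes tested. RNA came from CCG-HTA-1, a primary tail fibroblast line of UMHet3 mice, a genetically mixed stock, at passage 4. The cells were kept at ambient oxygen in high-glucose medium lacking pyruvate, and were exposed to a compound for 48 hours before total RNA was taken and depleted of ribosomal RNA. There were 3 libraries for each of 8 compounds and 6 for DMSO, the solvent control, 30 in all, although the series' own design text counts 5 for DMSO.

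The compounds were Antimycin A, an inhibitor of respiratory complex III; Dihydrorotenone, a complex I inhibitor related to rotenone; Diphenyleneiodonium Cl, an inhibitor of flavoenzymes; BerberineA, named so in the labels; Clofilium tosylate, a potassium channel blocker; Podofilox, which binds tubulin; Cardamonin, a plant chalcone; and AEG 3482. Doses were not used here. The mice were 5 to 8 weeks old when cells were taken, except that the label of Dihydrorotenone replicate 1 gives 8 to 11 weeks. All libraries came from the same line, so p-values measure only the spread between its cultures or libraries, and the library numbers in the labels run consecutively within groups, so that library order and treatment cannot be told apart.

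A ribosome needs most of its proteins in equal amounts, and the genes of its proteins are among the most highly transcribed in dividing cells. Their mRNAs start with a C followed by a run of pyrimidines, the 5′ TOP (terminal oligopyrimidine) motif, through which mTORC1 and the RNA-binding protein Larp1 set their translation and storage. Several of the proteins also act away from the ribosome: Rpl5 and Rpl11 bind Mdm2, the ubiquitin ligase of p53, when ribosome assembly is disturbed.

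The fibroblast label was checked against markers. All 10 fibroblast markers were at 1 TPM or more in every group, with summed levels of 9431 to 10673 TPM in DMSO. The sums lay wholly below DMSO in 7 of the 8 compounds: 3405 to 4616 TPM in Cardamonin, 5532 to 5995 TPM in Antimycin A, 6907 to 7193 TPM in Clofilium tosylate, 7183 to 7556 TPM in Diphenyleneiodonium Cl, 7196 to 7627 TPM in BerberineA, 7756 to 8418 TPM in Dihydrorotenone and 7992 to 8225 TPM in Podofilox. In AEG 3482, at 9663 to 10723 TPM, they overlapped DMSO. The other marker lists were low throughout: keratinocyte markers summed to at most 2.41 TPM, endothelial to at most 8.71, chondrocyte to at most 7.86, muscle to at most 0.821, adipocyte to at most 0.119, melanocyte to at most 18.6 (Antimycin A) and leukocyte to at most 44.9 (Cardamonin). Krt5 was listed at 0 in every library. The part of these marker shifts in the results below was not tested, and in bulk RNA fewer cells of a type and less RNA per cell cannot be told apart.

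RefSeq's start-site windows (GRCm38.p6) held 59 of the 79 members. The 60 bases from 45 before to 15 after the annotated start are shown for a selection of members. These are Rpl13a, Rpl22l1, Rps27 and Rpl7a, which had large changes described below, and 2 others with long pyrimidine runs (Rpl35, Rps26). Capitals mark the longest run of C and T near the start.
Rpl13a, chr7:45128731-45128790, minus strand: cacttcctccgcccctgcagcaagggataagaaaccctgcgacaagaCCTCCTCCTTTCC
Rpl22l1, chr3:28805463-28805522, plus strand: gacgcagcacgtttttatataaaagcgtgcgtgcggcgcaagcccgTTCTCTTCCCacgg
Rps27, chr3:90213634-90213693, minus strand: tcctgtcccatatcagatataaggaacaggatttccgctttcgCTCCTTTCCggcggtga
Rpl7a, chr2:26910762-26910821, plus strand: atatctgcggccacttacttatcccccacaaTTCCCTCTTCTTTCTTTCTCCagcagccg
Rpl35, chr2:39005117-39005176, minus strand: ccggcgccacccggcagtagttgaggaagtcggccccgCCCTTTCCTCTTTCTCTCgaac
Rps26, chr10:128626492-128626551, minus strand: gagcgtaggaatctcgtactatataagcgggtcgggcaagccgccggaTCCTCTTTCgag

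The runs of Rps27, Rpl7a and Rpl35 span the annotated start, and those of Rpl13a, Rpl22l1 and Rps26 begin just after it. Other windows read but not printed had longest runs of 3 bases (Rpl41, Rpl10, Rps3), 5 (Rplp0), 7 (Rpl12) and 4 to 7 (Rps19). Runs of 9 (Rps27l, with 4 in another window), 10 (Rps15a) and 11 (Rpl28) were also found. A C followed by at least 4 pyrimidines exactly at the annotated start was present in 13 of 59 members (22%) and 3.01% of all genes. A run of at least 8 pyrimidines within 15 bases of the start was present in 27 of 59 members (45.8%) and 13.9% of all genes. Of the motifs searched on both strands over 300 bases, CCGGAAG was present in 25 of 59 members (42.4%) and 9.93% of all genes, and TCTCGCGA in 11 of 59 members (18.6%) and 1.13% of all genes. AAGATGGC was present in 6 of 59 members (10.2%) and 3.19% of all genes, GGGCGG in 38 of 59 members (64.4%) and 38.2% of all genes and TATAAA in 7 of 59 members (11.9%) and 15.7% of all genes. These matches describe the letters in the windows. TATAAA is present in the windows of Rpl22l1 and Rplp0 and absent from those of Rpl13a, Rps27 and Rpl7a. A link between this motif and the changes below was not tested.

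In DMSO the members ranged over more than 100-fold in TPM, a measure per transcript length. The highest were Rplp1, a stalk protein, at 3366 ± 153 TPM (SD, n = 6), Rps15a at 2103 ± 172 and Rps24 at 1966 ± 91.1. Among the lowest were Rps25 at 11.7 ± 1.15 and Rpl7l1, a relative of Rpl7, at 43.5 ± 1.60. Rps25 was also the member just inside the level rule, at 12.1 TPM over all libraries. The 4 genes outside it were Rpl39l at 3.06, Rps12 at 0.583, Rpl3l at 0.151 and Rpl10l at 0.0159 TPM.

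Levels of single rows carry a limit. Ribosomal protein genes have many processed copies in the genome, and reads of a gene and its copy can be split between their rows. Rps12 was at 0.649 ± 0.717 TPM in DMSO (SD, n = 6), while Rps12-ps3, all of whose 31-base words also occur in Rps12, was at 1695 ± 77.7. Rows sharing at least 50% of their 31-base words with a member were counted as near-identical, 244 for 65 members. For 13 members they summed to more than the member's own row: the rows like Rpl12 held 1354 TPM against 134 for Rpl12, those like Rpl5 963 against 102, and those like Rpsa 334 against 69.5. Rpl22, Rps27l, Rps3 and Rps9 had no such row, and for Rpl7a, Rpl13a and Rps19 it held under 3 TPM. Values of members with abundant copies are uncertain, and for some changes the value with the rows added is also given. Counts of members with the rows added are given at the end, with the other processing alternatives.

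The members together made up a visible share of each library. Their summed level in the 6 DMSO libraries ran from 74581 to 81528 TPM, with a median of 79077. It was 88389, 98758 and 89471 TPM in Antimycin A, 89770.2, 86468 and 92502 TPM in Clofilium tosylate and 93122, 84567 and 84278 TPM in Dihydrorotenone, so that every library of these 3 groups lay above every DMSO library. It was 70545, 70877 and 73257 TPM in Cardamonin and 69269.6, 68208 and 71049.8 TPM in AEG 3482, all below every DMSO library. The groups overlapped DMSO for BerberineA (90201, 82503 and 79248 TPM), Diphenyleneiodonium Cl (82985, 82610.1 and 78825 TPM) and Podofilox (76111, 79925 and 75188 TPM). Group means stood at 117% of DMSO in Antimycin A and 88.5% in AEG 3482, the extremes. The small-subunit members held 43 to 44.4% of the sum in every library. Members varied less between libraries of a group than genes at large, with a median within-group SD of 0.080 on the log2 scale against 0.12. Members were kept by level and genes of like level were not compared, so the part of level in this difference was not tested. The members' deviations were shared within DMSO: replicate 3 was the lowest of the 6 for 44 of the 79 members and replicate 6 the highest for 34.

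**Figure D1:**
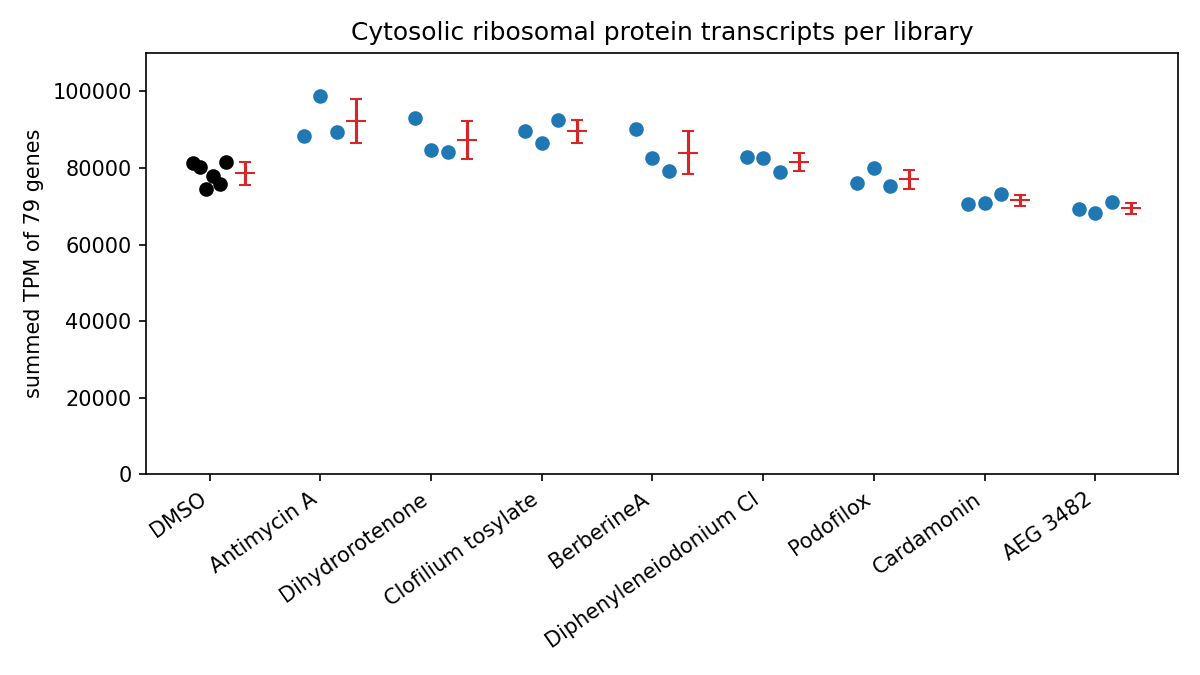
Summed TPM of the 79 cytosolic ribosomal protein genes in each library, black for DMSO and blue for compounds, with the group mean and SD in red. All Antimycin A, Clofilium tosylate and Dihydrorotenone libraries lie above the 6 DMSO libraries, and all Cardamonin and AEG 3482 libraries lie below them.

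Fold changes below are differences of mean log2(TPM + 1) between a compound and DMSO, tested with limma across all 13644 genes with Benjamini-Hochberg adjustment and a threshold of 0.05. The 8 compounds share the same 6 DMSO libraries, so the results of different compounds are not independent of each other.

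Most members were higher in Antimycin A. 55 of 79 rose and 0 fell in limma's test, against 21.8% of all tested genes that rose and 15.5% that fell, and 0 members were lower at an unadjusted p under 0.05; the members' median log2 fold change was 0.22, and that of all tested genes 0.032. All 3 libraries lay above the DMSO range for 52 members, as for 18% of all genes, and below it for 0 (13%). Both subunits took part, with 23 of 31 small-subunit and 32 of 48 large-subunit members higher. Rpl41, a very short basic protein of the large subunit, was at 1338 to 1839.6 TPM (median 1540.3) in DMSO and at 2062, 2249.5 and 2049.7 TPM in Antimycin A. The groups did not overlap, and the log2 fold change was 0.47 ± 0.069 (limma SE, adjusted p = 6.54e-06). Rps19, a small-subunit protein whose human counterpart is mutated in Diamond-Blackfan anaemia, was at 1370.1 to 1612 TPM (median 1471) in DMSO and at 2014, 2104 and 1919 TPM, again without overlap (0.44 ± 0.041 (limma SE, adjusted p = 5.02e-09)). Rpl12, at the base of the stalk, rose by 0.40 ± 0.063 (limma SE, adjusted p = 1.46e-05), or by 0.23 with its near-identical rows added. Under quantile normalization the median was 0.13. Summed fibroblast markers in these libraries were 5532 to 5995 TPM, below DMSO.

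Clofilium tosylate came next by count. 46 members rose and 0 fell in limma's test (0 lower at an unadjusted p under 0.05), against 10.9% of all genes higher and 12.5% lower, with a median of 0.18 beside -0.00015 over all genes; 42 members had all 3 libraries above the DMSO range, as did 9.56% of all genes, and 0 had all below it (11.2%). Rpl41 was at 2028, 1994 and 2075 TPM and rose by 0.41 ± 0.069 (limma SE, adjusted p = 9.41e-05). Rps19, at 1903, 1901 and 1942 TPM, rose by 0.37 ± 0.041 (limma SE, adjusted p = 3.29e-07). Both stood clear of the DMSO range. Summed fibroblast markers in these libraries were 6907 to 7193 TPM, also below DMSO.

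In Dihydrorotenone 33 members rose and 0 fell in limma's test (0 lower at an unadjusted p under 0.05), where 4.95% of all genes rose and 9.43% fell; the median was 0.14 against -0.033 over all genes, and 35 members lay wholly above DMSO and 0 wholly below (4.99% and 9.87% of all genes). Rpl41 was at 1988, 2009 and 1946 TPM and rose by 0.37 ± 0.069 (limma SE, adjusted p = 0.000708). Rps19, at 1819, 1733 and 1801 TPM, rose by 0.27 ± 0.041 (limma SE, adjusted p = 9.81e-05), and Rps16, a protein of the small-subunit head, by 0.24 ± 0.047 (limma SE, adjusted p = 0.00100). None of these 3 overlapped DMSO. Without Dihydrorotenone replicate 1, the library with the other age label and the highest sum of the group, 16 members rose, and 12 did when these 2 groups were fitted alone. Under quantile normalization 15 rose, with a median of 0.071. Fibroblast markers summed to 7756 to 8418 TPM, below DMSO.

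Set directly against Dihydrorotenone, Antimycin A had 7 members higher and 0 lower in limma's test (0 lower at an unadjusted p under 0.05), with 11.6% of all genes higher and 3.91% lower. The 7 were Rpl12 (0.31), Rpl10 (0.23), Rps3 (0.17), Rps19 (0.17), Rpl7l1 (0.13), Rplp0 (0.13) and Rpl4 (0.12), where the values are log2 differences. Rpl10, which joins the large subunit late in its maturation, was at 1716, 1898 and 1758 TPM in Antimycin A and at 1694, 1378 and 1519 TPM in Dihydrorotenone. The share of members higher was below that of all genes, and the count fell to 2 without Antimycin A replicate 2 or Dihydrorotenone replicate 2, to 3 without Antimycin A replicate 3 or Dihydrorotenone replicate 3, and to 1 under median-ratio scaling. The Rpl10 call was among those lost each time.

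Under BerberineA 20 members rose and 0 fell in limma's test (0 lower at an unadjusted p under 0.05), with 12.6% of all genes higher and 9.16% lower; the median was 0.088 against 0.023 over all genes. 15 members lay wholly above DMSO and 0 wholly below, as did 10.5% and 8.56% of all genes. Rps19 was at 1741, 1786 and 1757 TPM and rose by 0.25 ± 0.041 (limma SE, adjusted p = 6.92e-05). Rps3, which lines the mRNA entry channel, was at 439.9 to 519 TPM (median 491) in DMSO and 599, 549 and 535 TPM in BerberineA, without overlap (0.20 ± 0.049 (limma SE, adjusted p = 0.00311)). Rpl18 rose by 0.19 ± 0.051 (limma SE, adjusted p = 0.00758). The calls of Rps3 and Rpl18 were lost under median-ratio scaling, and that of Rpl18 also under quantile normalization and with these 2 groups fitted alone. Fibroblast markers summed to 7196 to 7627 TPM, below DMSO. Without BerberineA replicate 1, the highest library of the group, 8 members rose with a median of 0.054, and without replicate 2 13 did; under median-ratio scaling 4 did, and under quantile normalization 12 with a median of 0.040.

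Under Diphenyleneiodonium Cl 16 members rose and 1 fell, against 14% of all genes higher and 11.7% lower, with a median of 0.058. All 3 libraries lay above DMSO for 11 members and below it for 3 (13.3% and 11.3% of all genes). Rps19 was at 1849.9, 1806 and 1863 TPM, all above the DMSO range, and rose by 0.31 ± 0.041 (limma SE, adjusted p = 2.65e-06). Rpl18 rose by 0.19 ± 0.051 (limma SE, adjusted p = 0.00583) and Rps3 by 0.18 ± 0.049 (limma SE, adjusted p = 0.00635). The Rpl18 call was lost under quantile normalization and with these 2 groups fitted alone, and the Rps3 call under median-ratio scaling. Rpl3, which reaches towards the peptidyl transferase centre, was at 874 to 937 TPM (median 907) in DMSO and 835, 834 and 826 TPM here, and fell by 0.12 (limma, adjusted p = 0.0109). The count of rises was 6 without Diphenyleneiodonium Cl replicate 1, 8 without replicate 2 and 9 (with 2 lower) without DMSO replicate 3. By scaling, higher and lower calls were 2 and 1 (median ratio), 8 and 4 (quantile, median 0.014), and 8 and 2 (without the 20 most abundant genes). Fibroblast markers summed to 7183 to 7556 TPM, below DMSO.

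Most members were lower in Cardamonin, and a smaller number were higher. 42 fell and 14 rose, against 33% of all genes lower and 37.3% higher; the members' median was -0.17 and the all-gene median 0.033. All 3 libraries lay below DMSO for 37 members and above it for 10 (28.7% and 32.9% of all genes). Rpl22l1, the paralogue of Rpl22 (chr3:28805436-28807424, plus strand), was at 541 to 652 TPM (median 563) in DMSO and at 289, 332 and 276 TPM in Cardamonin. Every treated library was below every DMSO library, with a log2 fold change of -0.94 ± 0.091 (limma SE, adjusted p = 1.14e-09). Rps27, a zinc-finger protein of the small subunit (chr3:90212522-90213651, minus strand), was at 1723 to 2016 TPM (median 1809) in DMSO and 1205, 1257 and 1274 TPM here, without overlap (-0.57 ± 0.11 (limma SE, adjusted p = 6.51e-05); -0.49 with near-identical rows added). Rpl10a, the protein of the L1 stalk, changed by -0.45 ± 0.062 (limma SE, adjusted p = 4.45e-07). In the other direction, Rpl13a (chr7:45125558-45128761, minus strand), which also acts outside the ribosome as a repressor of inflammatory mRNAs, was at 127 to 148 TPM (median 139) in DMSO and at 216, 249 and 252 TPM, with no overlap and a change of 0.77 ± 0.058 (limma SE, adjusted p = 7.37e-12). Rps25, used by several viral entry sites on mRNA, rose by 0.45 ± 0.11 (limma SE, adjusted p = 0.000614), with DMSO levels of 9.68 to 13 TPM (median 11.8) and 13.7, 14.6 and 21.4 TPM here. Rpl12 rose by 0.40, or 0.16 with near-identical rows added. Under quantile normalization 19 members were higher and 33 lower with a median of -0.087, under median-ratio scaling 8 were higher, and without Cardamonin replicate 3 the rises numbered 9. Summed fibroblast markers in these libraries (3405 to 4616 TPM) were below those of DMSO (9431 to 10673 TPM), and their part was not tested.

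AEG 3482 also had more falls than rises. 44 members fell and 8 rose, where 26.8% of all genes fell and 41.3% rose, and the medians were -0.17 for members and 0.097 for all genes. 38 members lay wholly below DMSO and 7 wholly above (22.8% and 36.1% of all genes). Rpl7a, a large-subunit protein whose introns carry small nucleolar RNAs (chr2:26910764-26913318, plus strand), was at 843 to 906 TPM (median 865) in DMSO and at 467, 478 and 469.8 TPM. The 3 libraries lay close together and far below DMSO, and the change was -0.88 ± 0.036 (limma SE, adjusted p = 4.88e-17). Rpl22l1 was at 329, 289 and 317 TPM (-0.88 ± 0.091 (limma SE, adjusted p = 4.99e-09)) and Rps23, at the decoding centre, changed by -0.58 ± 0.075 (limma SE, adjusted p = 2.19e-07). Neither overlapped DMSO. Rpl13a was at 200.1, 207 and 210.4 TPM and rose by 0.56 ± 0.058 (limma SE, adjusted p = 4.04e-09). Rpl8, a core protein near the peptidyl transferase centre, was at 796 to 914 TPM (median 842) in DMSO and 1012, 1045 and 1057 TPM, and rose by 0.30 ± 0.038 (limma SE, adjusted p = 1.65e-07). Under median-ratio scaling 3 members rose and 50 fell with a median of -0.28, and without AEG 3482 replicate 3 the rises numbered 5. Summed fibroblast markers in these libraries (9663 to 10723 TPM) overlapped those of DMSO.

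**Figure D2:**
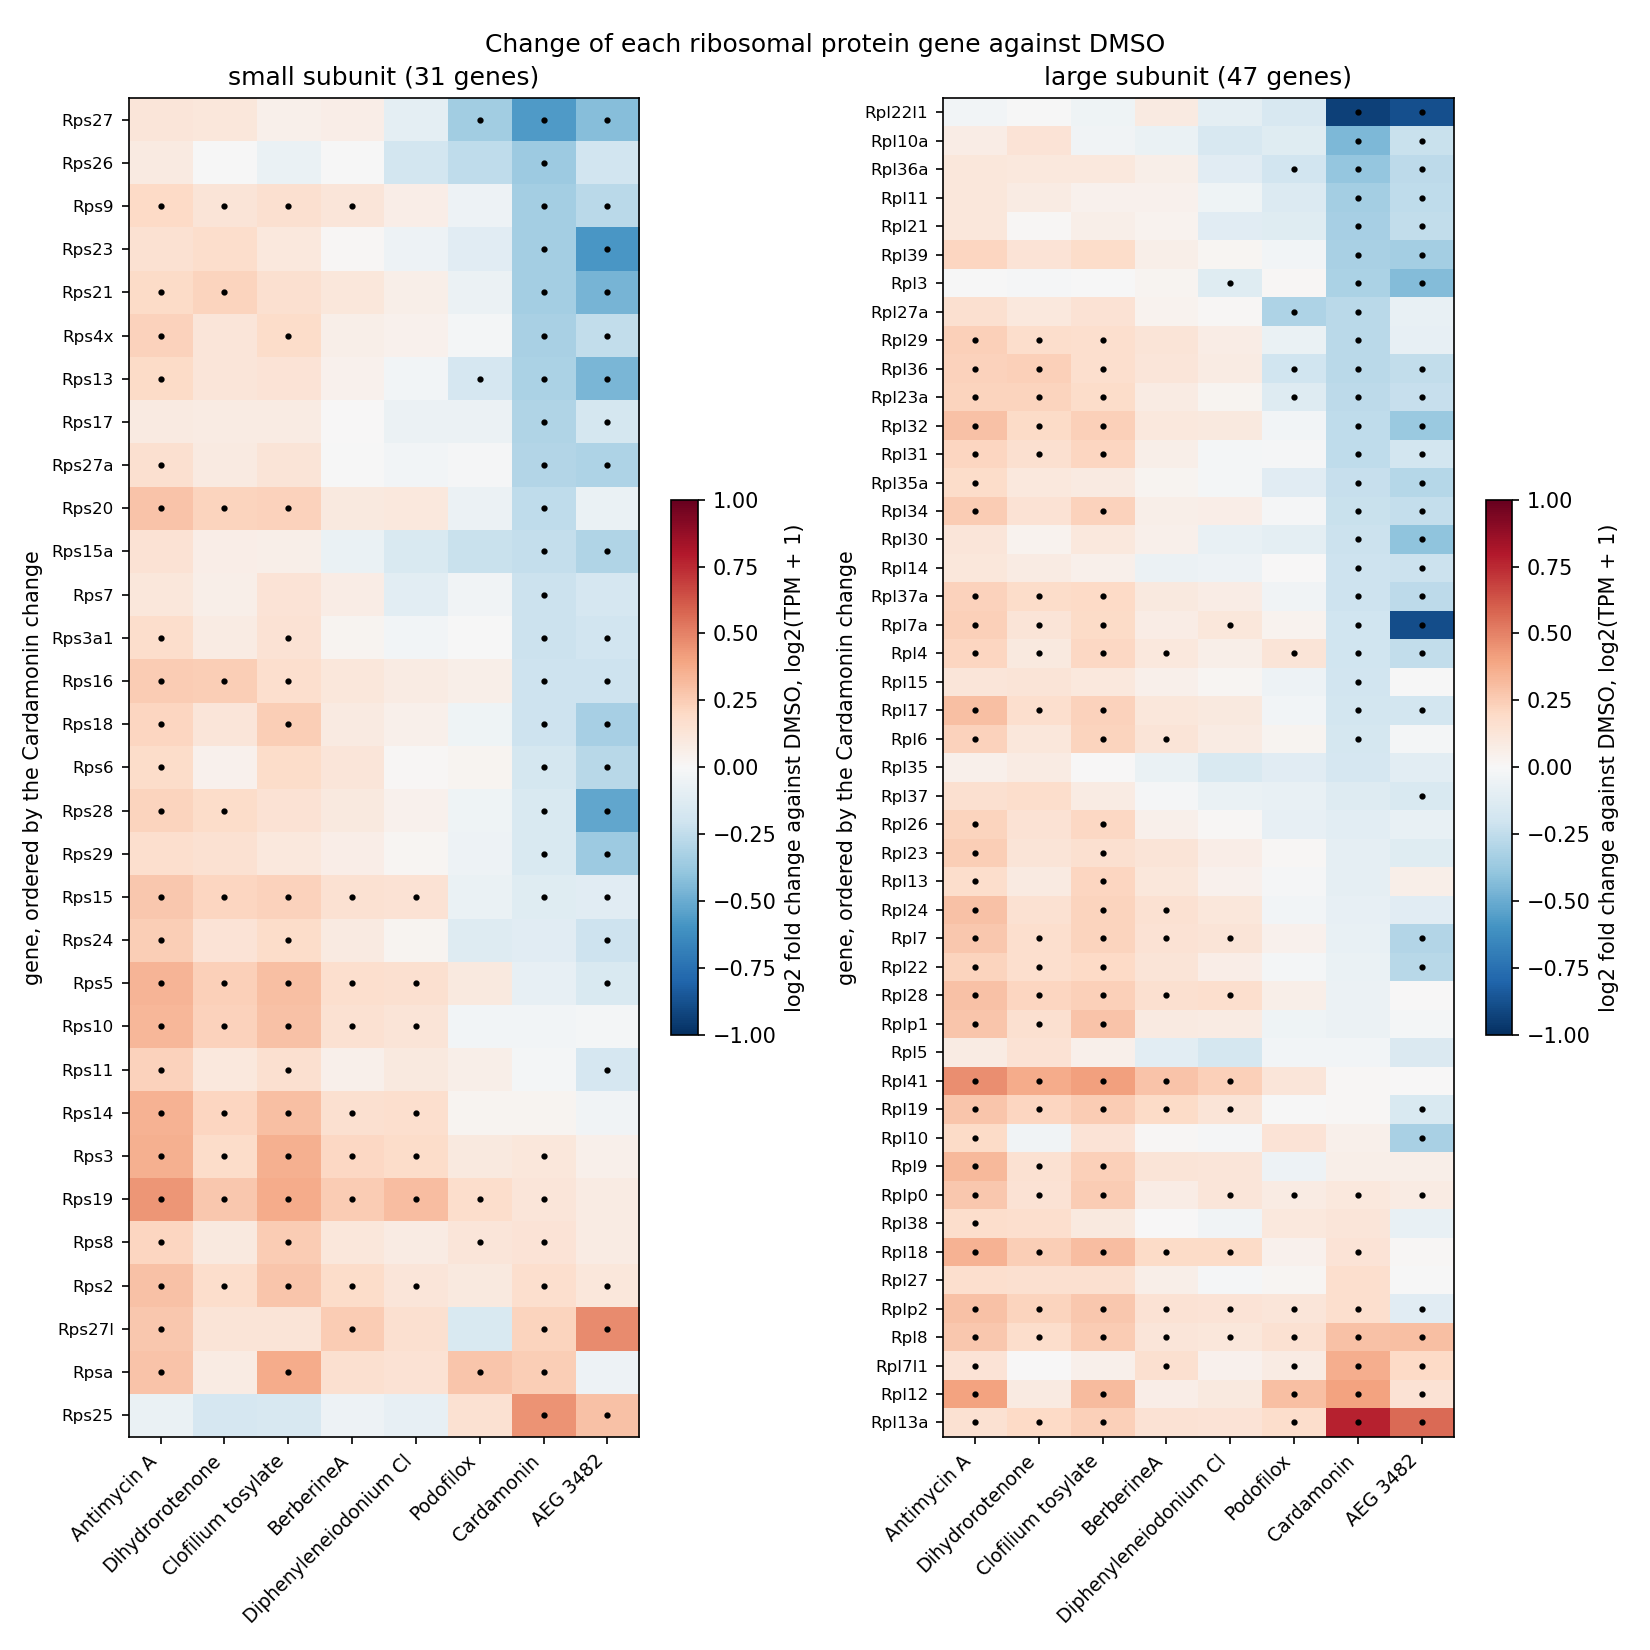
Log2 fold change against DMSO, on the log2(TPM + 1) scale, of the 31 small-subunit (left) and 47 large-subunit (right) genes in rows and the 8 compounds in columns, with a dot where the limma adjusted p was under 0.05. Antimycin A, Dihydrorotenone, Clofilium tosylate and BerberineA show rises without a call downwards, whereas Cardamonin and AEG 3482 hold 42 and 44 falls beside 14 and 8 rises.

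Cardamonin and AEG 3482 were set directly against each other. 17 members were higher and 6 lower in Cardamonin, with 22.6% and 32.7% of all genes. Rpl7a differed most: 744, 744 and 783 TPM in Cardamonin against 467, 478 and 469.8 TPM in AEG 3482, a difference of 0.68 ± 0.041 (limma SE, adjusted p = 5.42e-13). Rpl10 was at 1624, 1676 and 1571 TPM against 1335, 1239 and 1188 TPM (0.37 ± 0.073 (limma SE, adjusted p = 0.000108)), and Rps28, of the small-subunit head, differed by 0.37 ± 0.064 (limma SE, adjusted p = 2.70e-05). These 3 did not overlap between the groups. Rps27l was lower in Cardamonin by 0.25 (limma, adjusted p = 0.01000), a call lost without Cardamonin replicate 2 and under median-ratio scaling. Rpl22l1 differed by -0.060 ± 0.11 (limma SE, adjusted p = 0.659), which did not pass the test. The count higher was 8 without Cardamonin replicate 3 and 10 without AEG 3482 replicate 2, the count lower 2 without AEG 3482 replicate 3, and under median-ratio scaling 20 were higher and 0 lower.

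Few members passed the test in Podofilox. 10 rose and 6 fell, against 26.2% and 20% of all genes, and the median was -0.024, which was 0.0093 with near-identical rows added. All 3 libraries lay above DMSO for 9 members and below it for 6 (21.7% and 16.7% of all genes). Rps27 was at 1428, 1601 and 1326 TPM, below every DMSO library, and changed by -0.35 ± 0.11 (limma SE, adjusted p = 0.0113); with near-identical rows added the value was -0.20, and without Podofilox replicate 3 the call was lost. Rpl27a changed by -0.31 ± 0.074 (limma SE, adjusted p = 0.00120), or -0.16 with its copies, and Rpl36a by -0.19 ± 0.074 (limma SE, adjusted p = 0.0366), a call lost under 11 alternatives, among them leaving out any Podofilox library or DMSO replicate 1, 2 or 6. Rpl12 rose by 0.30 ± 0.063 (limma SE, adjusted p = 0.000375), Rpsa, also known as the laminin receptor precursor, by 0.28 ± 0.092 (limma SE, adjusted p = 0.0156), and Rps19 by 0.18 ± 0.041 (limma SE, adjusted p = 0.000904). Rises numbered 5 without Podofilox replicate 2 and 6 without DMSO replicate 3 or 4, and falls 3 without Podofilox replicate 1 or 3. Higher and lower calls were 3 and 4 under median-ratio scaling (median -0.057) and 12 and 4 without the 20 most abundant genes, and the median under quantile normalization was -0.00021. Fibroblast markers summed to 7992 to 8225 TPM, below DMSO.

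Paralogue pairs were read side by side. Rpl22 (chr4:152325742-152334071, plus strand) and Rpl22l1 encode proteins that can take the same place on the large subunit. In DMSO Rpl22 was at 719 to 811 TPM (median 785). It was at 728, 738 and 751 TPM in Cardamonin, overlapping DMSO (-0.069 ± 0.056 (limma SE, adjusted p = 0.277)), while Rpl22l1 fell there. In AEG 3482 Rpl22 was at 647, 631 and 643 TPM, below every DMSO library (-0.28 ± 0.056 (limma SE, adjusted p = 0.000112)). In Antimycin A, Clofilium tosylate and Dihydrorotenone Rpl22 rose, by 0.22, 0.20 and 0.17, whereas Rpl22l1 did not pass the test (-0.026, -0.045 and -0.0019); the difference between the paralogues was not tested. The Rpl22 call was lost in Antimycin A under quantile normalization, in Clofilium tosylate without its replicate 1 or 3, and in Dihydrorotenone under each of the 3 rescalings and without its replicate 1 or 3 or DMSO replicate 2, 3 or 5.

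Rps27l (chr9:66946086-66949516, plus strand) is the paralogue of Rps27 and a known target of p53. In DMSO it was at 472 to 579.9 TPM (median 528). It was at 732, 709 and 769 TPM in AEG 3482, where Rps27 fell, and rose by 0.48 ± 0.070 (limma SE, adjusted p = 1.34e-06). In Cardamonin it was at 619, 581 and 658 TPM and rose by 0.23 ± 0.070 (limma SE, adjusted p = 0.00583), a call lost without Cardamonin replicate 3. All treated libraries of both groups stood above the DMSO range. It also rose in Antimycin A (0.27) and BerberineA (0.26, lost without BerberineA replicate 1 and under median-ratio scaling). In Podofilox it changed by -0.15 (limma, adjusted p = 0.0774). Rpl7l1 rose in Cardamonin (0.36) and AEG 3482 (0.20), while Rpl7 fell in AEG 3482 (-0.29) and had a value of -0.073 in Cardamonin (limma, adjusted p = 0.167). The Rpl7l1 call in AEG 3482 was lost under median-ratio scaling, at 0.092 (limma, adjusted p = 0.0686), and under quantile normalization.

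**Figure D3:**
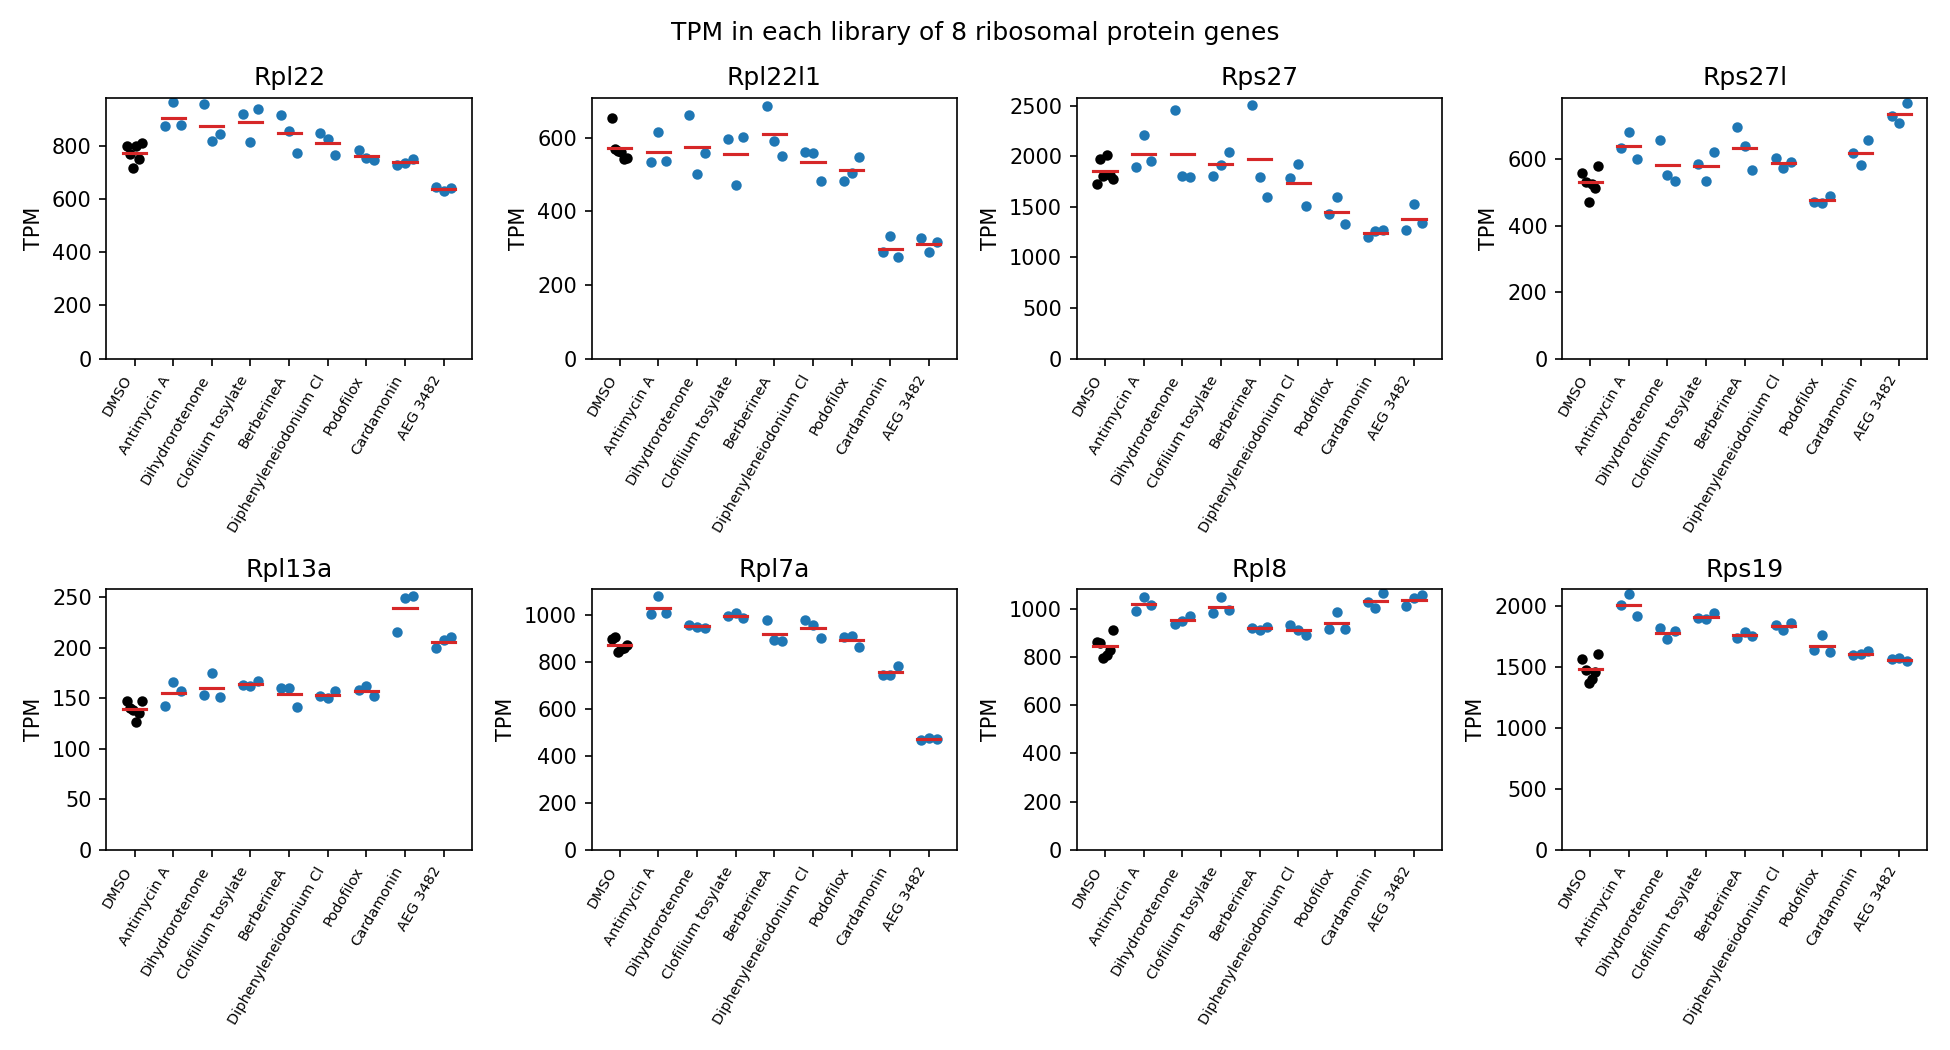
TPM in each library (points; black for DMSO, blue for compounds) and group mean (red bar) of Rpl22, Rpl22l1, Rps27, Rps27l, Rpl13a, Rpl7a, Rpl8 and Rps19. Rpl22l1 and Rps27 are low in Cardamonin and AEG 3482 while Rps27l and Rpl13a are high there, Rpl7a is lowest in AEG 3482, and Rps19 is highest in Antimycin A.

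The stalk proteins Rplp0, Rplp1 and Rplp2, which draw elongation factors to the ribosome, rose together in Antimycin A (0.27, 0.28 and 0.30), Clofilium tosylate (0.25, 0.28 and 0.27) and Dihydrorotenone (0.15, 0.16 and 0.22). In Cardamonin Rplp0 (0.11) and Rplp2 (0.17) rose against the direction of most members, though both calls were lost under median-ratio scaling, and Rplp1 had -0.058 (limma, adjusted p = 0.295). In AEG 3482 Rplp0 rose by 0.079 (limma, adjusted p = 0.0386), but had -0.028 under median-ratio scaling, while Rplp2 fell by 0.11 (limma, adjusted p = 0.0378). The AEG 3482 call of Rplp0 was lost without AEG 3482 replicate 2 or 3 or DMSO replicate 3, 4 or 5, and that of Rplp2 without AEG 3482 replicate 1 or 2 or DMSO replicate 1, 2 or 6. In Dihydrorotenone the Rplp1 call was lost without its replicate 1 or 3 or DMSO replicate 5 and under quantile normalization, the Rplp0 call under quantile normalization, and the Rplp1 and Rplp2 calls with these 2 groups fitted alone.

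Rpl11, the partner of Rpl5 in the 5S ribonucleoprotein, fell in Cardamonin (-0.34 ± 0.061 (limma SE, adjusted p = 2.13e-05)) and AEG 3482 (-0.25 ± 0.061 (limma SE, adjusted p = 0.000719)). Its levels were 749.7 to 863 TPM (median 818) in DMSO, 637, 616 and 669.8 TPM in Cardamonin and 680.0, 645 and 719 TPM in AEG 3482. Rpl5, most of whose signal lies in near-identical rows, passed the test against DMSO with none of the 8 compounds (log2 values from -0.17 in Diphenyleneiodonium Cl to 0.14 in Dihydrorotenone). Rps6, the substrate of S6 kinase, fell in AEG 3482 (-0.28) and Cardamonin (-0.18) and rose in Antimycin A (0.18). The Cardamonin fall was lost under quantile normalization, with pseudogene rows added, and without Cardamonin replicate 1 or 2 or DMSO replicate 1. The Antimycin A rise was lost under each of the 3 rescalings and without Antimycin A replicate 2 or 3 or DMSO replicate 2, 3, 5 or 6. Rps27a, made as a fusion with ubiquitin, fell in Cardamonin (-0.30) and AEG 3482 (-0.31). Rpsa rose in Antimycin A (0.29), Clofilium tosylate (0.37) and Cardamonin (0.25), and the Antimycin A call was lost without Antimycin A replicate 1 and the Cardamonin call without Cardamonin replicate 3 and under quantile normalization.

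Each member was also measured relative to the other members, to ask whether the composition changed beside the common shift. Counts depended on the reference, which was the median log2 level of the members in each library, their summed TPM or their mean log2. Each reference was made from the members themselves, so their values centre on it. The shares of all genes given beside the counts include the members' common shift, and are no background for a change in composition. Above and below the members' median stood 7 and 9 members in Antimycin A (5.55% and 41.5% of all genes), 7 and 7 with all 3 references. The counts were 3 and 17 in Clofilium tosylate (1.99% and 47.2% of all genes), 3 and 6 with all 3 references, and 3 and 4 in Dihydrorotenone (1.23% and 27.2% of all genes), 2 and 4 with all 3 references. They were 4 and 5 in Diphenyleneiodonium Cl (6.54% and 11.3% of all genes), 4 and 4 with all 3 references, 6 and 0 in BerberineA (4.95% and 9.48% of all genes), 4 and 0 with all 3 references, and 12 and 12 in Podofilox (21% and 16.7% of all genes), 12 and 10 with all 3 references. Cardamonin had 16 and 41 (36.6% and 29.1% of all genes), 16 and 24 with all 3 references, and AEG 3482 had 13 and 41 (41.9% and 22.6% of all genes), 13 and 19 with all 3 references. Rps19 was above the rest in all 8 compounds, with each reference, by 0.21 to 0.23 in Antimycin A and 0.26 to 0.27 in Diphenyleneiodonium Cl. Rpl41 was above the rest in Antimycin A (0.23 to 0.25), Dihydrorotenone (0.22 to 0.23), Clofilium tosylate (0.17 to 0.23) and BerberineA (0.19 to 0.22). Rpl3 was below the rest in Antimycin A (-0.24 to -0.22), Dihydrorotenone, Diphenyleneiodonium Cl, Clofilium tosylate, Cardamonin and AEG 3482 (-0.39 to -0.26). These repeated calls share the DMSO libraries.

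Genes that work with the ribosomal proteins were read from lists, with the 2 largest rises and falls past the threshold named for each compound. The 23 other 5′ TOP genes encode mostly translation factors, beside ribosome-bound proteins such as Rack1 and Naca, and RNA-binding proteins and chaperones. In Antimycin A 18 rose and 0 fell (78.3% and 0%, against 21.8% and 15.5% of all genes), with a median of 0.20 and the largest rises in the poly(A)-binding protein Pabpc1 (0.39) and Tpt1 (0.32). In Clofilium tosylate 14 rose and 0 fell (60.9% and 0%, against 10.9% and 12.5% of all genes), with a median of 0.16 and the largest rises in Rack1 (0.30) and Pabpc1 (0.28). In Dihydrorotenone 6 rose and 0 fell (26.1% and 0%, against 4.95% and 9.43% of all genes), with a median of 0.10 and a rise in Pabpc1 (0.22). In these 3 groups the share of the list that rose was above that of all genes. Under BerberineA 7 rose and 0 fell (30.4% and 0%, against 12.6% and 9.16% of all genes), with a median of 0.11 and the largest rises in Pabpc1 (0.22) and Naca (0.19). In Diphenyleneiodonium Cl 5 rose and 0 fell (21.7% and 0%, against 14% and 11.7% of all genes), with a median of 0.053 and the largest rises in Pabpc1 (0.32) and Eif3f (0.15). In Cardamonin 10 rose and 5 fell (43.5% and 21.7%, against 37.3% and 33% of all genes), with a median of -0.0017 and the largest rises in the histone chaperone Nap1l1 (0.76) and the initiation factor subunit Eif3a (0.52) and the largest falls in Eif3e (-0.90) and Eif4b (-0.42). In AEG 3482 7 rose and 7 fell (30.4% and 30.4%, against 41.3% and 26.8% of all genes), with a median of -0.036 and the largest rises in the elongation factor Eef1a1 (0.37) and Eef1g (0.25) and the largest falls in the splicing regulator Hnrnpa1 (-0.94) and Eif3e (-0.83). The share that rose in AEG 3482 was below that of all genes and the share that fell above it. In Podofilox 8 rose and 2 fell (34.8% and 8.7%, against 26.2% and 20% of all genes), with a median of 0.063 and the largest rises in Eef1g (0.32) and Hnrnpa1 (0.29) and the largest falls in Eif3e (-0.28) and Eif4b (-0.11). At an unadjusted p under 0.05 the genes lower numbered 0 in Antimycin A, 0 in Clofilium tosylate, 1 in Dihydrorotenone, 0 in BerberineA and 1 in Diphenyleneiodonium Cl.

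The 46 ribosome biogenesis genes make and process ribosomal RNA and assemble the subunits. In Cardamonin 39 rose and 0 fell (84.8% and 0%, against 37.3% and 33% of all genes), with a median of 0.64 and the largest rises in the box H/ACA protein Nhp2 (1.37) and Rrp9 (1.27). Nhp2 was at 30.1 ± 2.35 TPM in DMSO (SD, n = 6) and 79.3 ± 5.97 TPM in Cardamonin (SD, n = 3). In AEG 3482 32 rose and 4 fell (69.6% and 8.7%, against 41.3% and 26.8% of all genes), with a median of 0.28 and the largest rises in Utp20 (1.05) and Nop16 (0.83) and the largest falls in Rrp1b (-0.69) and Emg1 (-0.29). In Podofilox 32 rose and 1 fell (69.6% and 2.17%, against 26.2% and 20% of all genes), with a median of 0.30 and the largest rises in Rrs1 (0.75) and Ppan (0.70) and the fall in Sbds (-0.091). In these 3 groups the list rose in a larger share, and fell in a smaller one, than all genes. In Antimycin A 13 rose and 3 fell (28.3% and 6.52%, against 21.8% and 15.5% of all genes), with a median of 0.10 and the largest rises in Wdr12 (0.45) and Mrto4 (0.35) and the largest falls in Tsr1 (-0.29) and Gar1 (-0.23). In Clofilium tosylate 4 rose and 2 fell (8.7% and 4.35%, against 10.9% and 12.5% of all genes), with a median of 0.043 and the largest rises in Rrs1 (0.30) and Utp20 (0.28) and the largest falls in Ltv1 (-0.15) and Tsr1 (-0.11). In Dihydrorotenone 0 rose and 9 fell (0% and 19.6%, against 4.95% and 9.43% of all genes), with a median of -0.061 and the largest falls in Nop58 (-0.29) and Tsr1 (-0.27). Dihydrorotenone had a larger share of falls than all genes. Under BerberineA 3 rose and 3 fell (6.52% and 6.52%, against 12.6% and 9.16% of all genes), with a median of -0.0094 and the largest rises in Utp20 (0.29) and Pes1 (0.19) and the largest falls in Tsr1 (-0.35) and Bysl (-0.20). In Diphenyleneiodonium Cl 1 rose and 11 fell (2.17% and 23.9%, against 14% and 11.7% of all genes), with a median of -0.074 and the rise in Lyar (0.18) and the largest falls in Tsr1 (-0.40) and Ppan (-0.30). Where limma gave 0, 0 were lower in Cardamonin and 1 higher in Dihydrorotenone at an unadjusted p under 0.05. The difference between the biogenesis list and the ribosomal proteins was not tested.

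The 78 mitochondrial ribosomal protein genes serve the other ribosome of the cell. In Cardamonin 48 rose and 9 fell (61.5% and 11.5%, against 37.3% and 33% of all genes), with a median of 0.26 and the largest rises in Mrps6 (1.24) and Mrps18b (0.87) and the largest falls in Mrpl54 (-0.59) and Mrps28 (-0.48). In AEG 3482 38 rose and 18 fell (48.7% and 23.1%, against 41.3% and 26.8% of all genes), with a median of 0.16 and the largest rises in Mrps6 (1.13) and Mrpl20 (0.65) and the largest falls in Mrps28 (-1.50) and Mrpl54 (-1.08). The AEG 3482 shares lay closer to those of all genes than the Cardamonin shares. In Podofilox 14 rose and 5 fell (17.9% and 6.41%, against 26.2% and 20% of all genes), with a median of 0.0051 and the largest rises in Mrps18b (0.50) and Mrpl47 (0.37) and the largest falls in Mrps14 (-0.22) and Mrps15 (-0.22). In Antimycin A 25 rose and 2 fell (32.1% and 2.56%, against 21.8% and 15.5% of all genes), with a median of 0.12 and the largest rises in Mrpl30 (0.38) and Mrpl58 (0.31) and the largest falls in Mrps28 (-0.27) and Mrpl50 (-0.13). In Clofilium tosylate 7 rose and 2 fell (8.97% and 2.56%, against 10.9% and 12.5% of all genes), with a median of 0.061 and the largest rises in Mrpl38 (0.25) and Mrps7 (0.24) and the largest falls in Mrpl50 (-0.20) and Mrps14 (-0.15). In Dihydrorotenone 3 rose and 0 fell (3.85% and 0%, against 4.95% and 9.43% of all genes), with a median of 0.034 and the largest rises in Mrpl55 (0.22) and Mrpl30 (0.18). The shares that rose in Podofilox, Clofilium tosylate and Dihydrorotenone were below those of all genes. Under BerberineA 7 rose and 1 fell (8.97% and 1.28%, against 12.6% and 9.16% of all genes), with a median of 0.057 and the largest rises in Mrps30 (0.29) and Mrps9 (0.28) and the fall in Mrpl50 (-0.15). In Diphenyleneiodonium Cl 3 rose and 7 fell (3.85% and 8.97%, against 14% and 11.7% of all genes), with a median of 0.023 and the largest rises in Mrpl38 (0.23) and Mrps9 (0.20) and the largest falls in Mrps28 (-0.37) and Mrpl50 (-0.28). For the 0 falls in Dihydrorotenone, the number lower was 1 at an unadjusted p under 0.05.

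**Figure D4:**
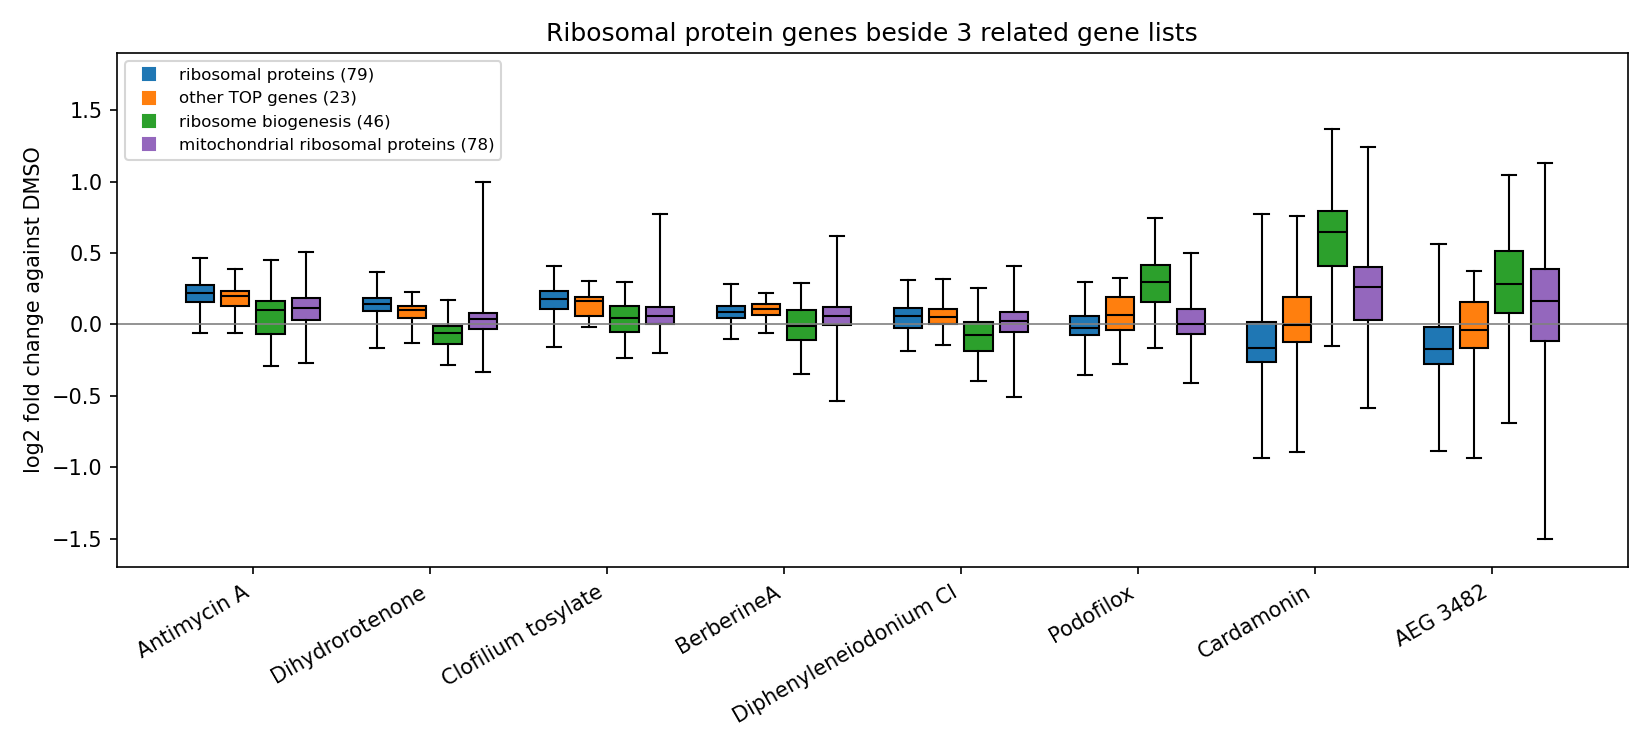
Log2 fold change against DMSO, on the log2(TPM + 1) scale, of the 79 ribosomal protein genes, 23 other 5′ TOP genes, 46 ribosome biogenesis genes and 78 mitochondrial ribosomal protein genes under each compound. Boxes show quartiles and median and whiskers the full range; under Cardamonin and AEG 3482 the ribosomal protein box lies mostly below 0 while the biogenesis box lies above it.

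Of 22 listed regulators of ribosomal protein synthesis 21 were measured. In Cardamonin 13 rose and 2 fell (61.9% and 9.52%, against 37.3% and 33% of all genes), with a median of 0.34 and the largest rises in Mdm2 (1.71) and Eif4ebp1 (1.48) and the largest falls in Sesn1 (-2.12) and the S6 kinase gene Rps6kb2 (-0.55). Mdm2 is the ligase bound by Rpl5 and Rpl11, Eif4ebp1 the mTORC1 target that holds back cap-dependent initiation, and Sesn1 a p53 target that restrains mTORC1. Mdm2 was at 115 ± 15.2 TPM in DMSO (SD, n = 6) and 374 ± 14.6 TPM in Cardamonin (SD, n = 3). In AEG 3482 15 rose and 2 fell (71.4% and 9.52%, against 41.3% and 26.8% of all genes), with a median of 0.41 and the largest rises in Mdm2 (1.66) and Eif4ebp1 (1.08) and the largest falls in the Ets factor Gabpa (-1.02) and Sesn1 (-0.48). Sesn2, the other sestrin on the list, rose in both, by 0.98 in Cardamonin and 1.06 in AEG 3482. In Podofilox 9 rose and 2 fell (42.9% and 9.52%, against 26.2% and 20% of all genes), with a median of 0.16 and the largest rises in Myc (0.96) and Eif4ebp1 (0.69) and the largest falls in Sesn1 (-1.07) and Tsc2 (-0.18). In Antimycin A 4 rose and 3 fell (19% and 14.3%, against 21.8% and 15.5% of all genes), with a median of 0.036 and the largest rises in Sesn2 (0.59) and Mdm2 (0.41) and the largest falls in Sesn1 (-0.43) and Gabpa (-0.43). In Clofilium tosylate 3 rose and 2 fell (14.3% and 9.52%, against 10.9% and 12.5% of all genes), with a median of 0.033 and the largest rises in Sesn2 (0.52) and Eif4ebp1 (0.30) and the largest falls in Sesn1 (-0.37) and Gabpa (-0.28). Shares in these 2 groups were near those of all genes. In Dihydrorotenone 0 rose and 2 fell (0% and 9.52%, against 4.95% and 9.43% of all genes), with a median of -0.046 and the largest falls in Myc (-0.21) and Larp4 (-0.20). Under BerberineA 4 rose and 2 fell (19% and 9.52%, against 12.6% and 9.16% of all genes), with a median of 0.039 and the largest rises in Sesn2 (0.30) and Mdm2 (0.25) and the largest falls in Myc (-0.37) and Gabpa (-0.27). In Diphenyleneiodonium Cl 4 rose and 4 fell (19% and 19%, against 14% and 11.7% of all genes), with a median of 0.080 and the largest rises in the mTORC1 inhibitor Ddit4 (0.50) and Mdm2 (0.39) and the largest falls in Myc (-0.46) and Gabpa (-0.27). For the 0 rises in Dihydrorotenone, the number higher was 1 at an unadjusted p under 0.05. Myc, an activator of ribosome synthesis, rose in Cardamonin (0.68), AEG 3482 (0.92) and Podofilox, fell in Antimycin A (-0.23), Dihydrorotenone, BerberineA and Diphenyleneiodonium Cl, and had -0.040 in Clofilium tosylate (limma, adjusted p = 0.702).

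Ribosomal protein mRNAs are abundant and short, so other genes with these features were read beside them. The 1284 other coding genes with a mean of at least 100 TPM had medians of 0.038 in Antimycin A, 0.015 in Cardamonin and 0.095 in AEG 3482. The 1710 others with coding lengths of at most 600 bases had 0.042, 0.033 and 0.076. The members' medians in the same comparisons were 0.22, -0.17 and -0.17. The abundant class passed the test more often than all genes. It rose in 35.9% in Antimycin A, 20.5% in Clofilium tosylate, 14.2% in Dihydrorotenone, 23.8% in BerberineA and 25.2% in Diphenyleneiodonium Cl. The members' shares there were 69.6%, 58.2%, 41.8%, 25.3% and 20.3%. In Cardamonin and AEG 3482 40.9% and 32.4% of the class fell, beside 53.2% and 55.7% of the members. Across the 79 members, the correlation of the change with coding length ran over the 8 compounds from -0.20 in Dihydrorotenone to 0.41 in Podofilox (Pearson's r), and from -0.17 to 0.48 in the same compounds (Spearman's rho). With the log2 level in DMSO, Pearson's r ran from -0.41 in Cardamonin to 0.32 in Dihydrorotenone. Spearman's rho there ran from -0.27 in AEG 3482 to 0.27 in Antimycin A. The DMSO level also enters the change itself. Those values are descriptions across genes of the same libraries, which are not independent replicates.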

How the data were processed

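RNA of 30 mouse fibroblast libraries (8 compounds with 3 each, DMSO with 6) was grouped by the labels' agent field. Per the submitters' processing notes the authors used FastQC, kallisto 0.43.1 and mm10, and the series text names tximport and DESeq2; the transcript index is not given in the sources used here. The deposited values are TPM per gene, made by the authors. The listed genes sum to 927024 to 937134 TPM per library, and the depth in reads is unknown, so no interval for counting error is given. Symbols came from GENCODE M21 (29426 of 29861 rows).

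Genes at 1 TPM or more in at least 3 libraries were kept (13644). Values were fitted as log2(TPM + 1) with limma 3.58.1 in R 4.3.3, with a mean per group over all 30 libraries, a mean-variance trend and Benjamini-Hochberg adjustment; a fold change on this scale understates the change of low genes. The limma step was checked on simulated data. Near-identical rows share at least 50% of their 31-base words with a member. Members named are, per compound, the 3 largest rises and 3 largest falls past the threshold with every treated library outside the DMSO range, the highest and lowest in DMSO, paralogues, stalk proteins and those with other roles; of each list the 2 largest rises and falls per compound, and in the direct contrasts members chosen after their values were seen. 1 member and 1 gene of the 5′ TOP list are counted but not reported by name here, and that member is not drawn in the plot of changes by gene. The members and lists were chosen with earlier results of these data known. Alternatives covered the pseudocount, filters, scaling, replicate block, trend, copies and each library left out; adding all near-identical rows and the mean log2 reference were chosen after seeing the data.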

Additional observations from a re-analysis of the deposited data

Results flagged for a closer look

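Among members named in the text, 36 sets of 6 DMSO values were examined for a single library far from the others, and 3 had one. Rpl22l1 was at 652 TPM in DMSO replicate 1, with the other 5 between 541 and 569. Rpl27a was at 681 TPM in DMSO replicate 4, with the others between 577 and 602. Rps4x was at 1416 TPM in DMSO replicate 1, with the others between 1288 and 1334. Chance marks about 1 in 20 such sets.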

How the results depend on the processing

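Of 110 named changes, 60 kept direction and threshold in every alternative run, and 50 lost the threshold in at least 1; Rplp0 in AEG 3482 turned to -0.028 under median-ratio scaling (limma, adjusted p = 0.620). The cause of the following shifts was not tested.

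Under median-ratio scaling, members higher numbered 2 in Diphenyleneiodonium Cl, 8 in Cardamonin, 4 in BerberineA, 3 in AEG 3482 (median -0.28), 3 in Podofilox and 1 in Antimycin A against Dihydrorotenone; Cardamonin against AEG 3482 had 0 lower and a median of 0.12. Under quantile normalization, Antimycin A had 1 lower and a median of 0.13, Dihydrorotenone 15 higher, Diphenyleneiodonium Cl 8 higher, 4 lower and a median of 0.014, Cardamonin a median of -0.087, and BerberineA 12 higher. Rescaled without the 20 most abundant genes, members higher numbered 8 in Diphenyleneiodonium Cl (2 lower), 9 in Cardamonin, 9 in BerberineA, 4 in AEG 3482 (median -0.25) and 1 in Antimycin A against Dihydrorotenone. With the compared groups fitted alone, they numbered 12 in Dihydrorotenone, 5 in Diphenyleneiodonium Cl (3 lower), 8 in BerberineA and 1 in Antimycin A against Dihydrorotenone, and without the trend 6 in Podofilox. With all near-identical rows added, members higher numbered 68 in Antimycin A, 58 in Clofilium tosylate, 46 in Dihydrorotenone and 26 in BerberineA. They numbered 19 in Diphenyleneiodonium Cl and 14 in Podofilox. Higher and lower calls were then 14 and 42 in Cardamonin, and 7 and 49 in AEG 3482.

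Relative to the members' summed TPM, 8 were lower in Diphenyleneiodonium Cl, 24 in Cardamonin and 2 in BerberineA; Clofilium tosylate had 7 higher and 10 lower, and AEG 3482 25 and 19. Relative to their mean log2, 11 were higher in Antimycin A, 5 in Dihydrorotenone and 7 in Diphenyleneiodonium Cl, 2 lower in BerberineA, and Clofilium tosylate had 8 and 6 and AEG 3482 24 and 24.

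With 1 library left out at a time, members higher ranged over 16 to 36 in Dihydrorotenone, 6 to 16 in Diphenyleneiodonium Cl (1 to 2 lower), 9 to 14 in Cardamonin, 8 to 26 in BerberineA, 5 to 9 in AEG 3482, 5 to 13 in Podofilox (3 to 7 lower), 8 to 17 in Cardamonin against AEG 3482 (2 to 8 lower) and 2 to 5 in Antimycin A against Dihydrorotenone.

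Whether replicate numbers pair the samples was not settled, because the values below were not tested. Of 24 same-numbered pairs, 2 correlated above 0.1 (range -0.055 to 0.12). Each treated library was also compared with all 6 DMSO libraries, and 7 of 24 correlated best with their own number. With a replicate block, 5 members were higher in AEG 3482 and 5 in Podofilox; the other counts stayed within 1.5 times. DMSO replicates 4 to 6 have no treated library of the same number, so this block takes them out of the comparisons. Its effect cannot be told apart from that of having fewer DMSO libraries.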
